A study of Homo sapiens with 2 samples.

Results

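The S100 proteins, annexins and galectins of K562 and MOLT4 were examined as 47 genes among the 60586 listed in the deposited table: 19 S100 genes, 12 annexin genes and 16 genes with a galectin symbol. A rule on the gene symbol chose them and used no level. The galectin symbols take in LGALS3BP, which encodes a secreted glycoprotein that binds galectins and is not a galectin itself, an antisense RNA gene and a pseudogene. K562 is an established line from a chronic myeloid leukaemia in blast crisis that carries the BCR-ABL1 fusion and has erythroid features, and the labels give its cell type as erythrocyte. MOLT4 is an established line from a T cell acute lymphoblastic leukaemia, labelled T lymphoblast. Neither line carried an added treatment in the labels, and both were kept in the same serum-supplemented DMEM. RNA sequencing gave 1 deposited FPKM per gene and line, a fragment count divided by transcript length and by the mapped total. The series' design text states 3 biological replicates, but values per replicate were not used here, so no SD or n stands beside any level, the depth is unknown, and every q-value is the authors' own from Cuffdiff with adjustment over 18870 tested genes. If those values rest on 1 library per line, a q-value compares the libraries and not the lines.

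S100 proteins are small EF-hand calcium sensors that mostly act as dimers and bind target proteins when calcium rises. Annexins are cytosolic proteins that dock onto acidic membrane phospholipids in the presence of calcium and serve in vesicle traffic, membrane repair and signalling. The families meet physically, because several annexins carry an N-terminal site for an S100 dimer: S100A10 binds annexin A2, S100A11 binds annexin A1, and S100A6 binds annexin A11. Galectins are carbohydrate-binding proteins with affinity for beta-galactosides, and they cross-link glycoproteins at the cell surface or mark damaged vesicles inside the cell. In blood cells, S100A8 and S100A9 are known as abundant granulocyte and monocyte proteins, and galectin-1 is known for effects on T cell survival.

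Most members that the lines expressed at an appreciable level were higher in K562, and a few, led by S100A10 and ANXA6, were far higher in MOLT4. Of the 47 genes, 23 reached 1 FPKM in at least 1 line, 18 of them with the higher level in K562 and 5 with the higher level in MOLT4. Of 15245 tested genes that reached 1 FPKM in at least 1 line, 7990 were higher in K562 and 7255 in MOLT4. Among the 23 members, 12 reached 1 FPKM in both lines, 10 in K562 alone and 1, S100Z, in MOLT4 alone. Of the 15245 tested genes, 10960 reached 1 FPKM in both lines, and no count for 1 line alone was made over all genes. A gene that enters through its higher line had to differ when the other line was low, so these counts describe the members and support nothing further. In the authors' deposited table, 25 members were tested, and 15 of them (60%) were called higher in K562 at a q of at most 0.05, beside 23.4% of all tested genes. In the other direction the authors' deposited table called 4 members (16%) higher in MOLT4, beside 18.8% of all tested genes. The MOLT4 share was near the background. The median of log2((K562 + 1)/(MOLT4 + 1)) over the 25 tested members was 1.65, beside 0.06 over all tested genes. By size alone, 16 members at 1 FPKM or more in the higher line were at least 2-fold higher in K562 and 5 at least 2-fold higher in MOLT4, where 26.5% and 21.1% of tested genes at that level passed the same limits. The smallest p in the authors' deposited table, 5e-05, was shared by 4647 genes and by 17 of the members, all of which therefore have a q of 0.000203, so members cannot be ordered by q.

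**Figure D1:**
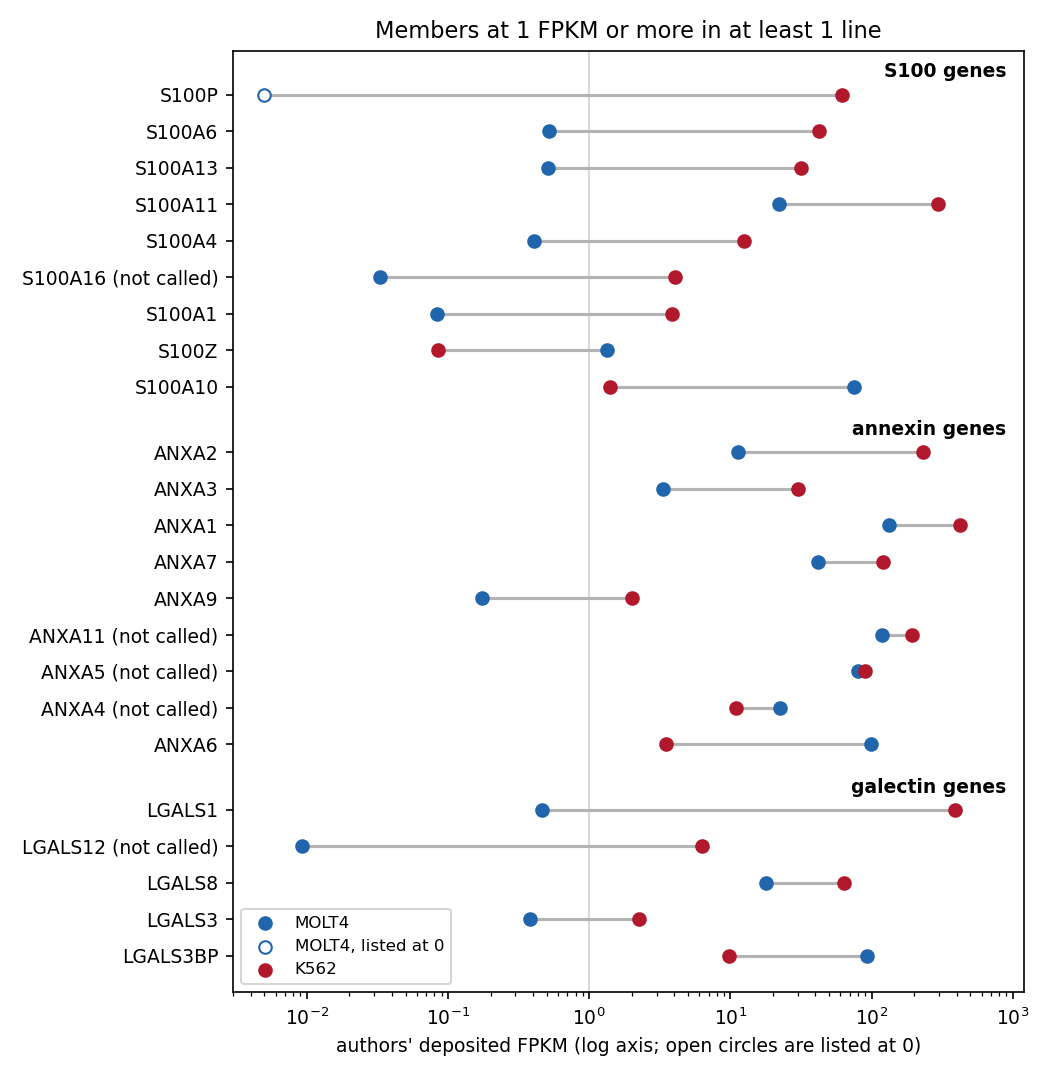
Deposited FPKM (log axis) of the 23 members at 1 FPKM or more in at least 1 line, with MOLT4 in blue and K562 in red, 1 value per line, and an open circle for a value listed at 0. The widest gaps among genes above 0 in both lines are those of LGALS1 and LGALS12 toward K562, and S100A10 and ANXA6 lie furthest apart toward MOLT4; members marked as not called had a q above 0.05.

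S100A10 and its partner annexin A2 were expressed in opposite directions. S100A10 (p11) is the S100 protein that has lost calcium binding and holds annexin A2 in a stable complex at the plasma membrane; its gene is ENSG00000197747.9, chromosome 1, 151982915 to 151994390, minus strand. It was at 75.3 FPKM in MOLT4 and 1.41 in K562. The level was thus 53.4-fold higher in MOLT4 (log2 K562/MOLT4 = -5.74; q = 0.000203 in the authors' deposited table). ANXA2 (ENSG00000182718.16, chromosome 15, 60347134 to 60402883, minus strand) was at 11.2 FPKM in MOLT4 and 230 in K562. It was 20.5-fold higher in K562 (log2 ratio 4.36; q = 0.000203 in the authors' deposited table). As levels per transcript length, MOLT4 had 6.70 units of S100A10 for each unit of ANXA2, and K562 had 164 units of ANXA2 for each unit of S100A10. Each line was therefore high in a different gene of the complex. The ANXA2 pseudogene ANXA2P2, a near copy that can share reads with ANXA2, was at 0.0564 FPKM in MOLT4 and 2.24 in K562, and ANXA2P1 and ANXA2P3 were at most 0.0289 FPKM.

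The promoter windows of this pair are shown because the genes of one complex had opposite levels. Each runs from 250 bases before to 50 bases after the annotated start, 5′ to 3′ on the gene's strand, from RefSeq on GRCh38.p14: chr1:151993810-151994109 for S100A10 and chr15:60397937-60398236 for ANXA2, both minus strand. Capitals mark matches on either strand, with overlapping matches merged, to any of 5 motifs. The motif of the erythroid GATA factors was searched as AGATAA. That of AP-1, the dimer of Fos and Jun proteins, was TGANTCA. The box bound by factors of the SP family was GGGCGG, and the box near many transcription starts was TATAAA. The motif of the lymphoid and myeloid ETS factors was CCGGAAG.
S100A10: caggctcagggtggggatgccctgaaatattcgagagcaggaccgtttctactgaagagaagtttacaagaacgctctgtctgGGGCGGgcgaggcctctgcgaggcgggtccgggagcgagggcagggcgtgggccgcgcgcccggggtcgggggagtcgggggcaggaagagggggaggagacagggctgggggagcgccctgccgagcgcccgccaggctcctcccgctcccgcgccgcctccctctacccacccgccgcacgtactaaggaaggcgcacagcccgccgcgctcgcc
ANXA2: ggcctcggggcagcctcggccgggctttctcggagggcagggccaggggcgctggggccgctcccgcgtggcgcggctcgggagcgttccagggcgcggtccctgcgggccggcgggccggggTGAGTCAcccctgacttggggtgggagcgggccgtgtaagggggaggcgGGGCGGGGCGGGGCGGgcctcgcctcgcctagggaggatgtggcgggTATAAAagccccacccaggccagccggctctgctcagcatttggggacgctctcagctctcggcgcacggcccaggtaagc
Both windows hold 32 CpG pairs, where the median over 35116 RefSeq windows of this length is 14. The S100A10 window has 1 match, to the GC box. The ANXA2 window has 5 matches, namely 3 overlapping GC boxes, an AP-1 motif and a TATA box. Over all windows, 45% hold the SP-family GC box, 7.71% the AP-1 motif, 11.5% the TATA box, 10.3% the GATA motif and 10.3% the ETS motif. A match is a description of letters and no site was measured.

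Other genes that work with annexin A2 and S100A10 were split between the lines. AHNAK, a giant scaffold protein that binds the annexin A2 and S100A10 complex, was at 0.0311 FPKM in MOLT4 and 16.4 in K562 (q = 0.000203 in the authors' deposited table), so it was high in the line that was high in ANXA2. ENO1, a glycolytic enzyme that also acts as a plasminogen receptor, was at 582 and 1488 FPKM, respectively, and PLGRKT, another plasminogen receptor, was at 19.7 FPKM in MOLT4 and 7.88 in K562. SERPINE2, an inhibitor of plasminogen activators, was at 10.9 FPKM in MOLT4 and 0.215 in K562. Of the 13 genes on the list of annexin and S100 partners at the membrane, 9 were tested in the authors' deposited table. Of these 9, 4 were called toward K562 and 3 toward MOLT4, beside 23.4% and 18.8% of all tested genes.

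Among S100 genes other than S100A10, K562 had the higher level of each that reached 10 FPKM. S100A11 (ENSG00000163191.6, chromosome 1, 152032506 to 152047907), which encodes a partner of annexin A1, was at 21.9 FPKM in MOLT4 and 293 in K562, where it ranked 314 among all listed genes. It was 13.4-fold higher in K562 (q = 0.000203 in the authors' deposited table). S100P (ENSG00000163993.7, chromosome 4, 6693069 to 6697170), named for its discovery in placenta, was at 61.3 FPKM in K562 with a listed 0 for MOLT4. It was the next highest S100 gene of K562 after S100A11, and no fold is given because a listed 0 can be a failed estimate. S100A6 (calcyclin; ENSG00000197956.10, chromosome 1, 153534599 to 153536244), a gene linked to proliferating cells, was at 0.516 FPKM in MOLT4 and 42.2 in K562. That is 81.9-fold (q = 0.000203 in the authors' deposited table). S100A13, whose protein takes part in the release of growth factors that lack a signal peptide, was at 0.513 and 31.7 FPKM. S100A4, a binder of non-muscle myosin known from metastasis, was at 0.409 and 12.5 FPKM. The MOLT4 values of S100A6, S100A13 and S100A4 all lay below 1 FPKM, and the authors' deposited table called each higher in K562 at q = 0.000203.

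The remaining S100 genes were low in both lines. S100A1, a calcium sensor of heart and muscle, was at 0.0836 FPKM in MOLT4 and 3.85 in K562 (q = 0.0186 in the authors' deposited table). S100A16 was at 0.0328 FPKM in MOLT4 and 4.04 in K562, but missed the threshold (q = 0.149 in the authors' deposited table). S100Z was the other S100 gene called higher in MOLT4, at 1.34 against 0.0851 FPKM (q = 0.000571 in the authors' deposited table). Just under 1 FPKM lay S100A5, at 0.560 FPKM in K562 and not called, and S100A14, at 0.428 FPKM in K562 with a listed 0 for MOLT4, which was called (q = 0.000203 in the authors' deposited table). The q-values therefore did not follow the level: S100A14 was called below 1 FPKM while S100A16 was not called at a higher level. In total the authors' deposited table called 7 of 11 tested S100 genes toward K562 and 2 toward MOLT4, beside the 23.4% and 18.8% of all tested genes. The granulocyte and monocyte genes S100A8 and S100A9 were at 0.118 and 0.215 FPKM in MOLT4 and at 0.112 and 0.132 FPKM in K562, and were not tested. S100A12, of the same cells, was listed at 0 in both lines, as was S100G, a vitamin D-dependent calcium-binding gene. S100B, known from glia, was at 0.177 FPKM in MOLT4 with a listed 0 for K562, and the remaining S100 genes reached at most 0.242 FPKM.

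The S100 pool was dominated by a different gene in each line. Summed over the 19 S100 genes, FPKM was 101 in MOLT4 and 452 in K562. S100A10 made up 74.8% of the sum in MOLT4 and 0.312% in K562. S100A11 made up 21.8% and 64.8%, respectively, and S100P, S100A6 and S100A13 added 13.6%, 9.35% and 7.03% in K562. S100A10 and S100A11 are neighbours on chromosome 1. In MOLT4, S100A11 came next after S100A10. In K562, S100A10 was below S100A11, S100P, S100A6, S100A13, S100A4, S100A16 and S100A1.

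**Figure D2:**
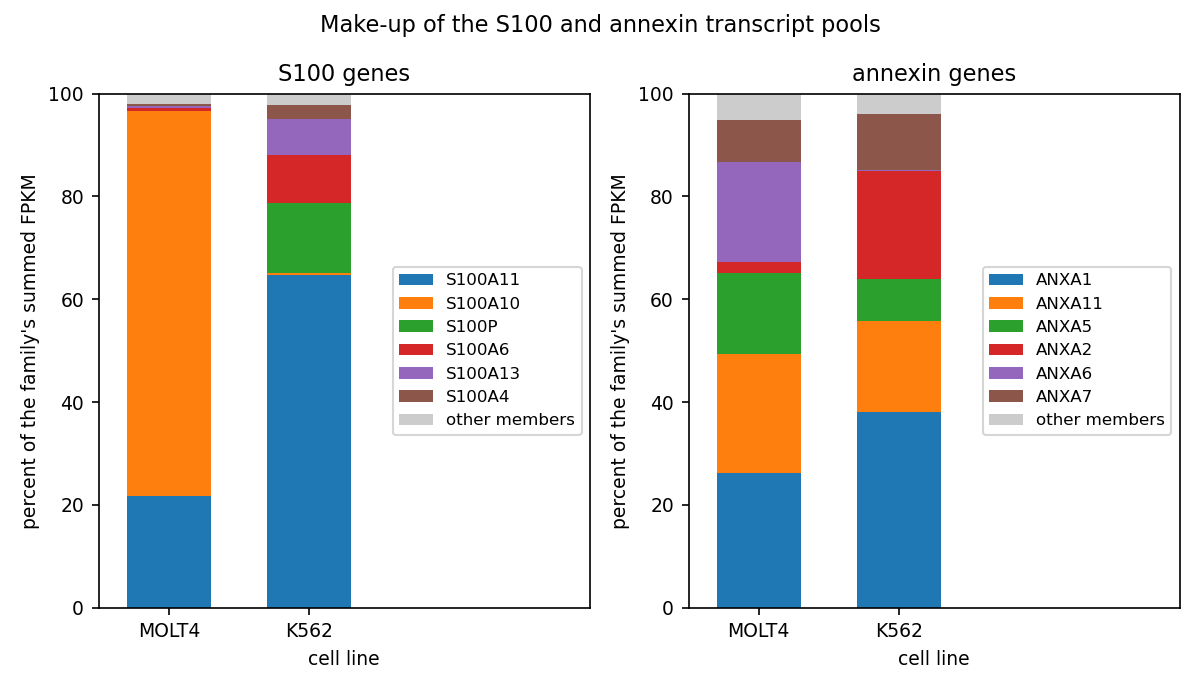
Percent of the summed FPKM of the S100 genes (left) and the annexin genes (right) taken by each gene in MOLT4 and K562, 1 deposited value per line. S100A10 fills 74.8% of the S100 bar in MOLT4 and S100A11 64.8% in K562, while ANXA1 is the largest annexin segment in both lines.

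The promoter windows of the S100 genes with the highest levels in K562 are shown to set them beside that of S100A10. They lie at chr1:152036955-152037254 (S100A11, minus strand), chr1:153535942-153536241 (S100A6, minus strand) and chr4:6693628-6693927 (S100P, plus strand) on GRCh38.p14, from RefSeq, with the same motifs in capitals.
S100A11: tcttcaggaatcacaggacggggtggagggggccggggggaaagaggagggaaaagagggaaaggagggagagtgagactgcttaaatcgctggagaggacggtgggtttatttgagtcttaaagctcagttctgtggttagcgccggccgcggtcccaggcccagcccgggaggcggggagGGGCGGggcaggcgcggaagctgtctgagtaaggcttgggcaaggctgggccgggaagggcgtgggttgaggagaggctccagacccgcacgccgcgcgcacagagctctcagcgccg
S100A6: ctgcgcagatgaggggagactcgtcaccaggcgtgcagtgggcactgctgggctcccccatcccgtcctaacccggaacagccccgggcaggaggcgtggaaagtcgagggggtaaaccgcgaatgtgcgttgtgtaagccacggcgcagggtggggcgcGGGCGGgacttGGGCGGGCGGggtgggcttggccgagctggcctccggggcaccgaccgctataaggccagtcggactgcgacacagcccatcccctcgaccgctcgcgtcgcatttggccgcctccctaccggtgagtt
S100P: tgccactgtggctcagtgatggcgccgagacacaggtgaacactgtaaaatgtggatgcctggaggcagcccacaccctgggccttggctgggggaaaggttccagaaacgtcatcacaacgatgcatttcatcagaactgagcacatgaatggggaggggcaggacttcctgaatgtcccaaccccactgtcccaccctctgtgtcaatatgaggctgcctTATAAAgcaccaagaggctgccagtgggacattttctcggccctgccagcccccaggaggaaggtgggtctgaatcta
The S100A11 and S100A6 windows hold 22 and 31 CpG pairs and match the GC box at 1 and 3 places. The S100P window holds 5 CpG pairs and 1 match, to the TATA box. The windows of S100A10, high in MOLT4, and of S100A6, high in K562, were thus alike in CpG count and in holding a GC box. RefSeq windows were found for 41 of the 47 members. Over the window at the first listed start, 21 named members had a median of 19 CpG pairs (range 0 to 44), and 20 members under 1 FPKM in both lines had a median of 4.5 (range 0 to 12).

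Of the S100 genes, 15 lie on chromosome 1, and they are given here in that order. S100A10 and S100A11 come first, and then 47 protein-coding genes of the skin barrier region that reached at most 0.204 FPKM in MOLT4. In K562 the highest of them was the cornified envelope gene SPRR2D at 63.2 FPKM, past no threshold (q = 0.357 in the authors' deposited table). The authors' deposited table called 3 others of this stretch higher in K562 at q = 0.000203, namely PRR9, SPRR2A and SPRR2F, at 1.19, 0.490 and 0.342 FPKM with a listed 0 for MOLT4. These 4 genes were named after their values were seen. S100A9, S100A12, S100A8 and S100A7 follow and reached at most 0.215 FPKM in either line. The 9 members from S100A6 to S100A1 all had the higher listed value in K562, and the authors' deposited table called 5 of them (S100A6, S100A4, S100A14, S100A13 and S100A1), beside 23.4% of tested genes. The genes just beyond them were not called higher in K562: CHTOP was at 59.8 FPKM in MOLT4 and 49.5 in K562 (q = 0.289 in the authors' deposited table), SNAPIN was at 19.3 and 20.0 FPKM (q = 0.974 in the authors' deposited table), and ILF2 was at 301 and 213 FPKM, called higher in MOLT4 (q = 0.0153 in the authors' deposited table). S100A13 and S100A1 overlap on opposite strands and share a deposited locus with CHTOP. No source used here gives the strand setting of the counting, so their reads cannot be told apart with certainty, and the same holds for S100A4 and S100A3 on the same strand.

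**Figure D3:**
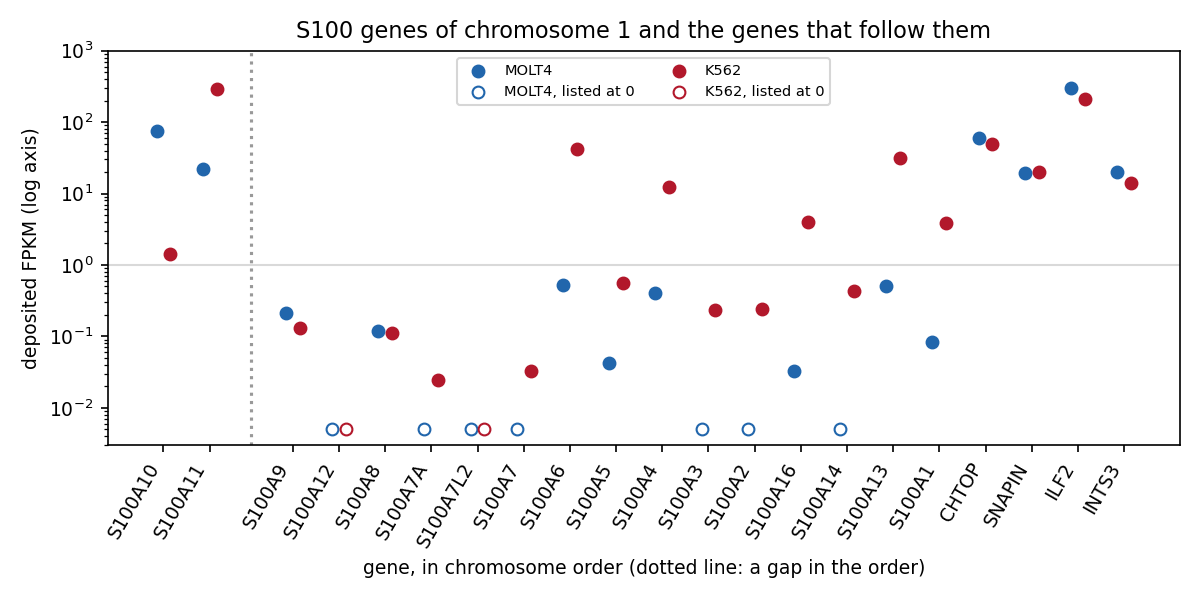
Deposited FPKM (log axis) of the S100 genes of chromosome 1 and of CHTOP, SNAPIN, ILF2 and INTS3 in chromosome order, with MOLT4 in blue, K562 in red and open circles for values listed at 0; S100A7A and S100A7L2, relatives outside the symbol rule, are included. From S100A6 to S100A1 each red point lies above the blue one, while S100A8 and S100A9 stay below 1 FPKM in both lines.

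Annexins were the family with the most even expression: 6 of the 12 genes were at 10 FPKM or more in both lines. ANXA1 (ENSG00000135046.14, chromosome 9, 73151757 to 73170393), a glucocorticoid-induced mediator that dampens inflammation, was the highest annexin in each line, at 134 FPKM in MOLT4 and 421 in K562. It was 3.15-fold higher in K562 (log2 ratio 1.65; q = 0.000203 in the authors' deposited table). ANXA7, an early-described annexin of vesicle fusion, was at 41.6 and 121 FPKM, which is 2.90-fold higher in K562 (q = 0.000203 in the authors' deposited table). ANXA3, an annexin of myeloid cells, was at 3.33 and 30.1 FPKM, 9.02-fold higher in K562 (q = 0.000203 in the authors' deposited table). ANXA9, an annexin with altered calcium sites, was at 0.174 and 2.01 FPKM. With ANXA2, these made 5 annexins that the authors' deposited table called higher in K562.

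ANXA6 went the other way. It encodes the annexin with a duplicated core, known from late endosomes and cholesterol handling (ENSG00000197043.14, chromosome 5, 151100712 to 151157882, minus strand), and was at 99.0 FPKM in MOLT4 and 3.50 in K562. This 28.3-fold difference (log2 K562/MOLT4 = -4.82; q = 0.000203 in the authors' deposited table) made it the only annexin called higher in MOLT4. Its promoter window at the first listed start, chr5:151157730-151158029 on the minus strand of GRCh38.p14, from RefSeq, is shown beside those of ANXA2 and S100A10.
ANXA6: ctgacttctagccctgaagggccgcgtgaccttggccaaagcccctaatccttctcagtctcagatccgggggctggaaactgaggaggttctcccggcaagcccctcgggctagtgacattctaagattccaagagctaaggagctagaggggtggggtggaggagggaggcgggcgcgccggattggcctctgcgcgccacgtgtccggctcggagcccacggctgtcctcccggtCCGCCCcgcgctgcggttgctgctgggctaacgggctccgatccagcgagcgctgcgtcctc
It holds 25 CpG pairs and 1 match, to the GC box, here read on the other strand.

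The other 3 tested annexins were not called. ANXA5, the phosphatidylserine binder used to stain dying cells, was at 79.4 FPKM in MOLT4 and 90.3 in K562 (q = 0.414 in the authors' deposited table), a difference of 1.14-fold. ANXA11, an annexin of RNA granule transport, was at 118 and 194 FPKM (q = 0.157 in the authors' deposited table). ANXA4, an annexin of secretory epithelia, was at 22.5 FPKM in MOLT4 and 10.9 in K562 (q = 0.147 in the authors' deposited table), although that is 2.07-fold. ANXA4 overlaps AAK1 on the opposite strand, at 19.4 and 11.1 FPKM, and what part of its value comes from AAK1 was not tested. ANXA10 and ANXA13, annexins of stomach and intestine, were listed at 0 in both lines, and ANXA8 reached 0.0152 FPKM. Beside 5 and 1 calls among 9 tested annexins stand the 23.4% and 18.8% of all tested genes. The annexin sum was 509 FPKM in MOLT4 and 1103 in K562. In MOLT4 the sum was led by ANXA1 at 26.3%, ANXA11 at 23.1%, ANXA6 at 19.5% and ANXA5 at 15.6%, and in K562 by ANXA1 at 38.2%, ANXA2 at 20.9% and ANXA11 at 17.6%. ANXA2 thus held 2.21% of the MOLT4 sum and ANXA6 0.318% of the K562 sum.

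LGALS1 had the largest ratio of any member above 0.1 FPKM in both lines. It encodes galectin-1, a small dimeric galectin (ENSG00000100097.12, chromosome 22, 37675608 to 37679806), and was at 0.465 FPKM in MOLT4 and 388 in K562, where it ranked 245 among all listed genes. The ratio was 835-fold (log2 ratio 9.71; q = 0.000203 in the authors' deposited table) and rests on a MOLT4 level below 1 FPKM. LGALS8, whose galectin carries a pair of sugar-binding domains and recognises damaged vesicles, was at 17.8 and 63.4 FPKM, 3.56-fold higher in K562 (q = 0.000203 in the authors' deposited table). It overlaps HEATR1 on the opposite strand, at 19.7 and 35.9 FPKM, and what part of its value comes from HEATR1 was not tested. LGALS3, the galectin with a collagen-like tail, was at 0.382 FPKM in MOLT4 and 2.24 in K562 (q = 0.000203 in the authors' deposited table), so this widely studied galectin was low in both lines.

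LGALS12, a galectin of fat and myeloid cells, was at 0.00917 FPKM in MOLT4 and 6.24 in K562 but missed the threshold (q = 0.347 in the authors' deposited table). LGALS3BP (ENSG00000108679.13, chromosome 17, 78971238 to 78980109) was the one gene with a galectin symbol, among those analysed here, called higher in MOLT4, at 92.4 against 9.81 FPKM, 9.42-fold (q = 0.000203 in the authors' deposited table). The ligand gene LGALS3BP and the galectin genes LGALS1 and LGALS3 thus differed in opposite directions. The authors' deposited table called 3 of the 5 tested galectin symbols analysed here higher in K562 and 1 higher in MOLT4, beside 23.4% and 18.8% of tested genes. The other 11 were not tested and reached at most 0.258 FPKM, among them LGALS2 and LGALS4, galectins of the gut, and the placental LGALS13, LGALS14 and LGALS16.

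Genes whose products receive, present or accompany these proteins were called in both directions, more often toward K562. Over 87 distinct genes on 6 lists, 75 were tested in the authors' deposited table, with 30 (40%) called toward K562 and 18 (24%) toward MOLT4, beside 23.4% and 18.8% of tested genes. Their median log2((K562 + 1)/(MOLT4 + 1)) was 0.33, beside 0.06 over all tested genes. Of 7 receptor genes, 4 were under 1 FPKM in both lines. BSG, a receptor of S100 proteins that also binds galectins, was the receptor gene called in the authors' deposited table, at 111 FPKM in MOLT4 and 218 in K562. AGER, the RAGE receptor, was at 6.01 and 4.93 FPKM (q = 0.533 in the authors' deposited table), and TLR4, FPR1 and FPR2 reached at most 0.144 FPKM. FPR3 was at 1.74 FPKM in K562 with a listed 0 for MOLT4 and was not past the threshold (q = 0.0798 in the authors' deposited table). The FPR genes encode formyl peptide receptors, of which FPR1 and FPR2 bind annexin A1.

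Among 18 membrane repair and calcium-bound adaptor genes, 15 were tested. The authors' deposited table called 6 of these 15 toward K562 and 3 toward MOLT4, beside 23.4% and 18.8% of all tested genes. CAPN2, the catalytic subunit of m-calpain, was at 0.572 FPKM in MOLT4 and 102 in K562, while CAPN1, that of mu-calpain, was at 33.6 and 73.7 FPKM. PDCD6IP (ALIX), an adaptor of the ESCRT membrane-scission machinery, was at 48.0 and 131 FPKM. The ESCRT genes CHMP4B and VPS4B were instead higher in MOLT4, at 111 against 50.2 FPKM and 25.2 against 10.2 FPKM. Among 18 other EF-hand sensors, 17 were tested. The authors' deposited table called 6 of these 17 toward K562 and 4 toward MOLT4, beside the same shares of all tested genes. PLCD1, a phospholipase C, was at 1.70 and 29.0 FPKM, CALU (calumenin) at 98.0 and 307 FPKM and NUCB1 at 28.6 and 87.6 FPKM. RCN1, RCN2 and NUCB2 were at 37.2, 84.4 and 437 FPKM in MOLT4 as opposed to 6.08, 31.3 and 106 in K562.

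On the galectin side, 15 of 16 counter-receptor genes were tested. The authors' deposited table called 7 of these 15 toward K562 and 4 toward MOLT4, beside 23.4% and 18.8% of all tested genes. The mucin gene MUC1 was at 0.476 FPKM in MOLT4 and 11.7 in K562, and the integrin genes ITGA5 and ITGB1 were at 9.68 and 67.4 FPKM in MOLT4 and 50.0 and 146 FPKM in K562. The T cell glycoprotein genes CD3E and CD2 were at 446 and 78.3 FPKM in MOLT4 and 0.165 and 0.0667 FPKM in K562, and CD47 was at 177 and 72.6 FPKM. All 16 genes of N-glycan branching and galectin ligand synthesis were tested. The authors' deposited table called 7 of these 16 toward K562 and 4 toward MOLT4, beside the same shares of all tested genes. The branching enzyme genes MGAT4A and MGAT4B differed in opposite directions, with MGAT4A at 23.6 FPKM in MOLT4 and 0.149 in K562 and MGAT4B at 12.6 and 56.8 FPKM. ST6GAL1, whose sialic acid caps can mask galectin ligands, was at 13.4 FPKM in MOLT4 and 85.3 in K562, and C1GALT1, which extends O-glycans, was at 6.49 and 17.4 FPKM. FUT8 and B3GNT2, enzymes of core fucosylation and of lactosamine extension, were at 33.2 and 40.9 FPKM in MOLT4 as opposed to 12.4 and 22.5 in K562. MGAT5, the branching enzyme most often tied to galectin binding, was at 12.7 and 14.3 FPKM (q = 0.623 in the authors' deposited table).

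**Figure D4:**
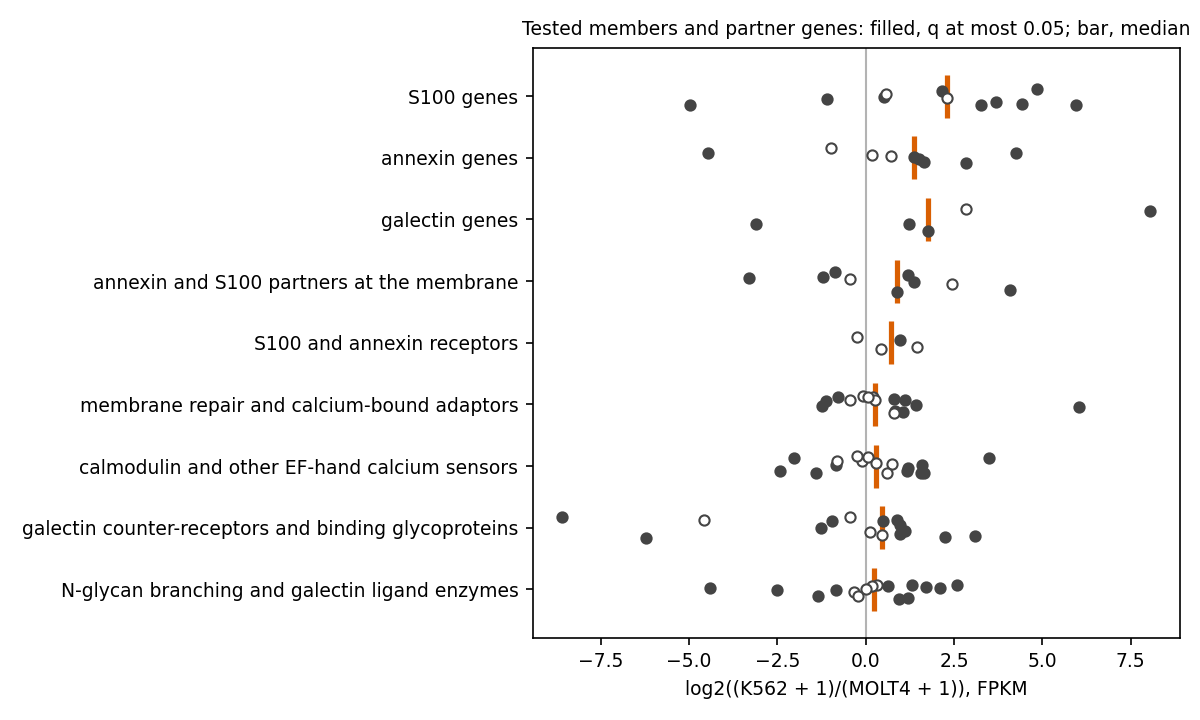
log2((K562 + 1)/(MOLT4 + 1)) of each tested gene in the 3 families and on the 6 partner lists, with filled points for a q of at most 0.05 in the authors' deposited table and an orange bar at the median of the tested genes. Each list has called genes on the K562 side, and each except the receptor list also has called genes on the MOLT4 side.

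Marker genes of the labelled cell types were in place. Of 8 erythroid markers, the authors' deposited table called 7 higher in K562, and of 8 T cell markers it called 5 toward MOLT4. Markers of other cell types also differed. The 9 granulocyte and monocyte markers summed to 0.349 FPKM in MOLT4 and 108 in K562, of which the lysozyme gene LYZ gave 105 FPKM, while MPO reached 0.00910 FPKM and ELANE was listed at 0 in both lines. The authors' deposited table called 2 of the 3 tested markers of this list higher in K562, beside 23.4% of all tested genes. The 5 epithelial markers summed to 0.869 FPKM in MOLT4 and 606 in K562, led by KRT18, KRT8 and KRT19. All 5 were tested. The authors' deposited table called 4 of them toward K562, where the share over all tested genes was 23.4%. The remaining marker, CDH1, stayed low, at 0.00823 FPKM in MOLT4 and 0.365 in K562. Its q of 0.0856, from the authors' Cuffdiff results, lay above 0.05. The 7 fibroblast and endothelial markers summed to 41.8 and 13.6 FPKM, of which PECAM1 gave 41.2 and 10.2 FPKM. On the same list, VWF reached at most 0.0107 FPKM, and CDH5 was listed at 0 in both lines. In these bulk samples, fewer cells with a transcript and less of it per cell cannot be told apart. The part of these marker differences in the values of the S100 genes, annexins and galectins was not tested.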

How the data were processed

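RNA of K562 and MOLT4 was sequenced; each line has 1 sample entry, while 3 biological replicates are stated in the design text. The tools named in the submitters' processing notes are Cuffdiff, Cufflinks (2.2.2), TopHat2 (2.1.1) and CASAVA (1.8.2), and the builds are hg38 and GRCh38.p13. FPKM, 1 per gene and line, is the deposited unit, and the deposited p-value and q-value per gene are the authors' own Cuffdiff results. Pooling of replicates, strand use and normalization between lines are not given in the sources used here, and the depth is unknown.

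Members were matched by symbol; 1 further galectin gene is not reported here. The symbol rule uses no level, but the families in it and the gene lists were chosen with earlier results of these data known. Every member at 1 FPKM or more in a line was named, and from each partner list up to 3 called genes per direction with the largest fold at 10 FPKM or more in the higher line; genes named beside these were chosen after their values were seen. Folds were computed from FPKM, and printed only where the lower line had at least 0.1 FPKM, since low levels make ratios unstable. Log2 ratios with a pseudocount of 1 FPKM understate the change of low genes. The computation was tested on simulated data with set changes and no noise, which checks the arithmetic only and not the deposited values or calls. Positions are from GENCODE release 29 (GRCh38), which matched all 47 members. Tools were Python 3.11.15, pandas 2.3.3, numpy 2.4.6 and matplotlib 3.10.9.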

Additional observations from a re-analysis of the deposited data

How the results depend on the processing

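No paired analysis was possible because the deposited table holds 1 value per line, and for the same reason no replicate could be left out. Each of the 23 named members kept its direction with a pseudocount of 0.1 FPKM, with K562 rescaled by the median ratio over genes that reached 1 FPKM in each line, and with both lines brought to the same summed FPKM. The calls of members and families kept within 1.5 times of their counts at a q of at most 0.01, with a 2-fold minimum and with a minimum of 1 FPKM. Leaving out symbols that are not family proteins took the galectin genes called higher in MOLT4 from 1 to 0, since LGALS3BP is that gene. Each tested galectin protein gene analysed here had its higher value in K562, so no threshold could call one higher in MOLT4. Medians of log2((K562 + 1)/(MOLT4 + 1)) over members at 1 FPKM or more, which were 1.77 for all members, 3.26 for S100 genes, 1.36 for annexins and 1.77 for galectin symbols, moved by more than 0.1. A pseudocount of 0.1 FPKM gave 2.95, 4.63, 1.53 and 2.28, and no filter gave 0.17, 0.31, 0.45 and 0.045, because most unfiltered members are near 0 in both lines. A minimum of 10 FPKM gave 4.06 for S100 genes and 1.11 for annexins. Equal summed FPKM gave 1.67 for all members, 3.16 for S100 genes and 1.67 for galectin symbols. Family proteins alone gave 1.97 for all members and 2.31 for galectins. No median changed sign. With the depth unknown, values below 1 FPKM have no stated precision.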

Other observations

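Relatives of the families outside the symbol rule were low in both lines. CLC, the gene of the Charcot-Leyden crystal protein, which has a galectin fold and is known from eosinophils and basophils, was at 1.60 FPKM in K562 with a listed 0 for MOLT4 (q = 0.000203 in the authors' deposited table). LGALSL, a galectin-like gene, was at 2.52 FPKM in MOLT4 and 0.131 in K562 (q = 0.000391 in the authors' deposited table). GRIFIN, a galectin-related gene of the lens, was listed at 0 in both lines. The annexin relative ANXA8L1 and the S100A11 pseudogenes S100A11P1 and S100A11P2 were also listed at 0 in both lines.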
